A study of Homo sapiens with 8 samples.

Results

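The genes of the human mitochondrial genome were examined in HCT116 cells, a ras-mutant epithelial line from a human colon cancer, after exposure to PZH, which is Pien Tze Huang, a compound formula of traditional Chinese medicine, or to DMSO as the control. Members were the rows of the count table whose gene symbol starts with MT-, which numbered 15 of 35394 rows. They were 13 mRNAs and 2 rRNAs. The 22 mitochondrial tRNA genes had no row in the table analysed here. Each group held 4 libraries of poly(A) RNA, DMSO replicates 1 to 4 and PZH replicates 1 to 4, and exposure lasted 24 h. That time is given for PZH, and no separate one for the control. The dose and whether replicates were separate cultures are not stated, so p-values measure the spread between these libraries, which may be technical.

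Human mitochondria carry their own small circular DNA, which is read from both strands into long precursor RNAs. The heavy-strand precursor holds the rRNAs, most tRNAs and all mRNAs but MT-ND6, which lies alone among the mRNAs on the light-strand precursor. The tRNAs between the genes mark where the precursors are cut, and most of the released mRNAs then receive a poly(A) tail inside the organelle. The mRNAs encode core subunits of respiratory complexes I, III and IV and of ATP synthase, and the rRNAs MT-RNR1 and MT-RNR2 form the small and the large subunit of the mitochondrial ribosome.

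Libraries held 19288836 to 19917571 counts in DMSO and 18144117 to 18868057 in PZH. All 15 members passed the filter on low counts, with 1822 to 488756 counts per gene and library, so counting error was small beside the spread between libraries. Levels are given as TMM-scaled counts per 1e+06, written CPM. Epithelial markers (EPCAM, KRT8, KRT18, KRT19 and CDH1) were present in both groups, at a summed 3832 to 3899 unscaled CPM in DMSO and 2372 to 2698 in PZH. They did not move together: KRT8 fell from 2053 ± 20.1 to 897 ± 58.1 unscaled CPM (SD, n = 4), and CDH1 rose from 86.7 ± 4.52 to 226 ± 8.39. Their TMM-scaled log2 fold changes were -0.93 (edgeR adjusted p = 1.02e-12) and 1.64 (adjusted p = 6.95e-19). EPCAM went from 303 ± 9.95 to 273 ± 7.4 unscaled CPM, but was called higher with TMM (log2 fold change 0.11, edgeR adjusted p = 0.0352). KRT18 and KRT19 were not called. The 13 markers of fibroblast, endothelial, immune and erythroid cells summed to 12.5 to 16.3 unscaled CPM in DMSO and 18.6 to 22.3 in PZH, nearly all from COL1A1 (mean 12.8 and 18.96). COL1A2, DCN, LUM and CD3E were at 0 in the DMSO libraries and COL1A2 and HBB in the PZH libraries. The part of these marker differences in the mitochondrial results was not tested.

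Since poly(A) selection acts at the 3′ end, the annotated gene ends of the RNAs that moved most and least are shown, 5′ to 3′. The RNAs themselves may end elsewhere, which was not examined. Capitals mark the stop codon, or the part of it that the gene encodes. Sequences are those of GENCODE release 29 (GRCh38), as is the annotation; the build behind the counts is not stated.
MT-RNR1: aagtgtactggaaagtgcacttggacgaac
MT-RNR2: tatacccacacccacccaagaacagggttt
MT-ND2: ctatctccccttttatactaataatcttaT
MT-CO2: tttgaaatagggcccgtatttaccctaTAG
MT-ND3: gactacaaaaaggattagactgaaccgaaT
MT-ND6: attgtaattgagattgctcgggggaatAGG
The mRNAs of MT-ND2 and MT-ND3 end in a lone T, so that the A residues of the tail complete their stop codon, whereas MT-CO2 and MT-ND6 encode all 3 letters in the annotation. In the annotation, 6 of the 13 mRNAs end in part of a stop codon that the tail completes, and 7 encode all 3 letters. MT-ATP6 is among the 7, but its last base, 9207, is also the first base of MT-CO3. Whether its mature RNA keeps that base was not examined. Human MT-ND6 mRNA is known to lack a poly(A) tail, and the rRNAs are known to carry only short ones. In such libraries a change in the amount of an RNA and a change in its tail cannot be told apart.

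Mitochondrial mRNAs and rRNAs moved in opposite directions. Of the 13 mRNAs, 12 were lower in PZH and none was higher, while both rRNAs were higher (edgeR quasi-likelihood test, Benjamini-Hochberg adjusted p under 0.05 over 15006 genes). Over all genes tested, 40.9% were called lower and 39.3% higher. The median log2 fold change of the 13 mRNAs was -0.97, and -0.02 over all genes tested. Without scaling factors these medians were -1.23 and -0.28, all 13 mRNAs were called lower and both rRNAs were still called higher; over all genes the higher calls then made up 36.8% of calls, against 49.0% with TMM. In bulk RNA, a lower level in every cell and a fall in some of the cells cannot be told apart.

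**Figure D1:**
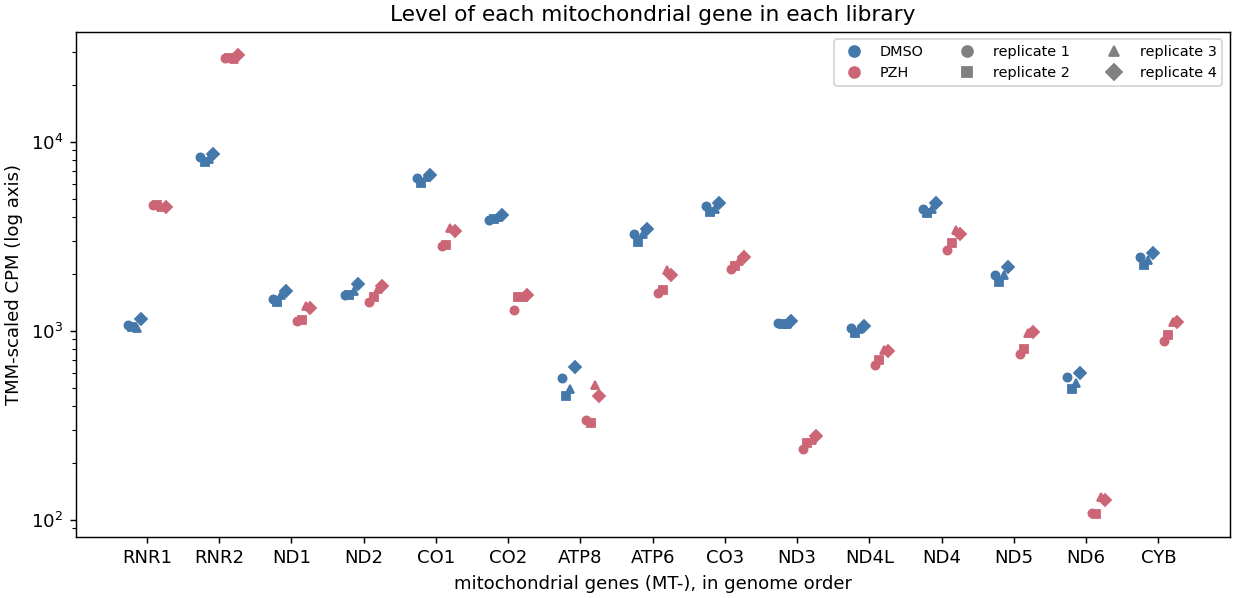
TMM-scaled CPM (log axis) of the 15 mitochondrial genes in genome order, with 1 point per library, DMSO in blue and PZH in red, and the marker shape giving the replicate number. The PZH points of RNR1 and RNR2 lie above those of DMSO, those of ND2 and ATP8 overlap with DMSO, and those of the other 11 genes lie below.

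All 15 genes are intronless in the annotation, and those named with no strand lie on the forward strand. MT-RNR1 (chrM:648-1601, forward strand of the GRCh38 sequence), the rRNA of the small ribosomal subunit, stood at 1076, 1043, 1036 and 1157 CPM in DMSO replicates 1 to 4. In PZH replicates 1 to 4 it stood at 4624, 4621, 4513 and 4533 CPM. Every PZH library lies far above every DMSO library. The mean over 4 libraries was 1078 ± 55.4 CPM (SD) in DMSO and 4573 ± 58.0 CPM in PZH, a 4.24-fold rise (log2 fold change 2.08 ± 0.0550 (SE), adjusted p = 1.62e-19). MT-RNR2 (chrM:1671-3229, forward strand), the rRNA of the large subunit, stood at 8288, 7824, 8102 and 8643 CPM in DMSO and 27665, 27827, 27274 and 28697 CPM in PZH. It rose 3.39-fold (log2 fold change 1.76 ± 0.0593 (SE), adjusted p = 1.25e-17). Every PZH library had over 3 times the MT-RNR2 level of any DMSO library. Groups without overlap and higher in PZH made up 36.6% of all genes tested. The rRNAs did not rise by the same factor: the ratio of MT-RNR2 to MT-RNR1 counts was 7.70, 7.50, 7.82 and 7.47 in the DMSO libraries and 5.98, 6.02, 6.04 and 6.33 in the PZH libraries. Every PZH ratio lies below every DMSO ratio (exact two-sided permutation p = 0.0286, the smallest that 70 assignments allow; adjusted p = 0.0314 over 11 measures of shares and ratios).

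As shares of all counts, the fall of the mRNAs and the rise of the rRNAs were of similar size. The mRNAs took 3.65, 3.42, 3.63 and 3.82% of counts in DMSO replicates 1 to 4 and 1.51, 1.52, 1.79 and 1.73% in PZH, where replicates 3 and 4 stand above 1 and 2. The rRNAs held 1.03, 0.968, 1.000 and 1.06% in DMSO and 3.06, 2.91, 2.90 and 2.97% in PZH. Neither class overlaps between the groups. Of all mitochondrial counts, rRNA made up 21.9 ± 0.211% in DMSO and 64.4 ± 2.34% in PZH (mean ± SD, n = 4 per group). The ratio of rRNA to mRNA counts was 0.282, 0.283, 0.276 and 0.279 in the DMSO libraries and 2.02, 1.92, 1.62 and 1.71 in the PZH libraries. It was 6.47-fold higher in PZH (difference of 2.69 on the log2 scale; exact two-sided permutation p = 0.0286, adjusted p = 0.0314). A ratio within a library does not depend on the scaling between libraries. The whole mitochondrial share was 4.64 ± 0.203% and 4.601 ± 0.129%, a difference within the spread between libraries (exact two-sided permutation p = 0.83). Taken as a share of TMM-effective library size it was higher in PZH, by 0.792 percentage points (adjusted p = 0.0286 over the 4 shares).

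**Figure D2:**
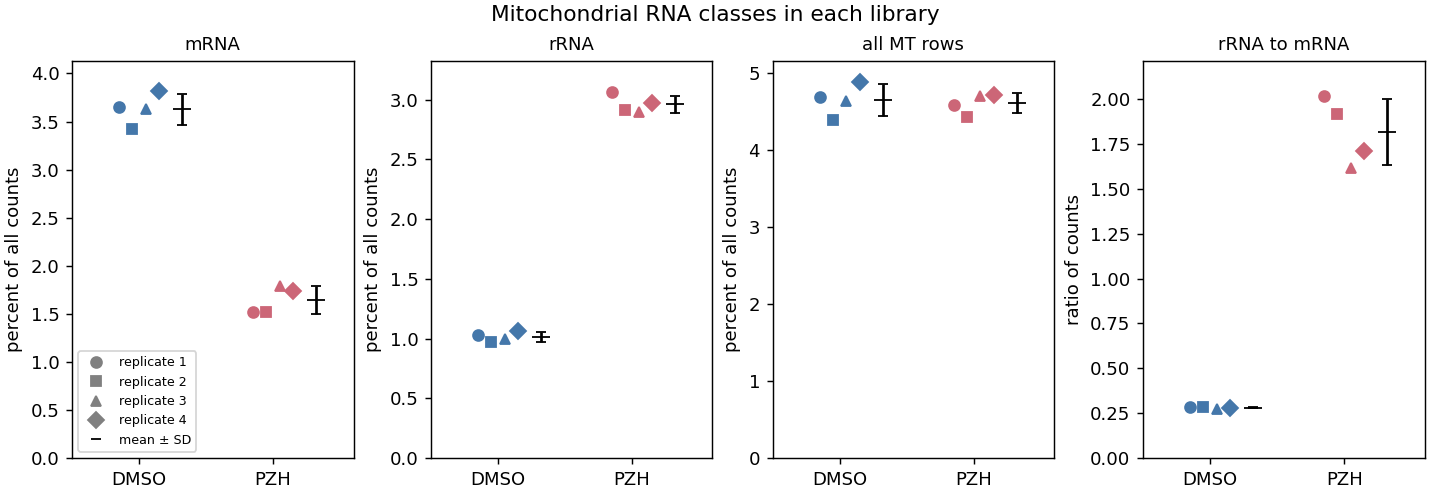
Percent of all counts in mitochondrial mRNAs, rRNAs and all 15 rows, and the ratio of rRNA to mRNA counts, with 1 point per library and the mean ± SD beside them. The rRNA to mRNA ratio lies between 0.276 and 0.283 in DMSO and between 1.62 and 2.02 in PZH, while the points for all rows overlap.

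The light-strand mRNA and 1 short heavy-strand mRNA fell furthest. MT-ND6 (chrM:14149-14673, reverse strand), a membrane subunit of complex I, stood at 570.1, 491, 532 and 598 CPM in DMSO replicates 1 to 4 and 109, 108, 131 and 128 CPM in PZH. It fell 4.603-fold (log2 fold change -2.20 ± 0.0693 (SE), adjusted p = 3.66e-18). MT-ND3 (chrM:10059-10404, forward strand), a short complex I subunit, stood at 1096, 1086, 1092 and 1126 CPM in DMSO and 238, 255, 266 and 277 CPM in PZH. It fell 4.25-fold (log2 fold change -2.09 ± 0.0533 (SE), adjusted p = 9.35e-20). In both genes every PZH library lies far below every DMSO library. The mRNAs beside MT-ND3 on the heavy strand fell less: MT-CO3, which lies before MT-ND3, fell 1.96-fold, and MT-ND4L, which lies after it, 1.39-fold. In the annotated ends printed above, MT-ND3 ends in part of a stop codon and MT-ND6 in a whole one. Over the 6 mRNAs with a partial stop in the annotation, the level was lower by a factor of 1.02 to 4.25. The ends of that range were MT-ND2, which did not pass the test, and MT-ND3. Over the 7 with a complete stop in the annotation the factor ran from 1.32 for MT-ATP8 to 4.603 for MT-ND6. Counting MT-ATP6, at 1.77, with the 6 instead would change neither range.

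MT-ND6 was set against the 12 heavy-strand mRNAs within each library. Its counts were -5.84, -5.97, -5.94 and -5.85 on the log2 scale relative to their sum in DMSO replicates 1 to 4, and -7.18, -7.29, -7.22 and -7.24 in PZH. The ratio was 2.51-fold lower in PZH, without overlap between the groups (exact two-sided permutation p = 0.0286, adjusted p = 0.0314). With only 1 light-strand mRNA, strand and gene cannot be told apart. Whether counting used strand is not stated, so reads from MT-ND6 and from heavy-strand RNA across the same bases cannot be told apart either.

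The proximal genes MT-ND1 and MT-ND2, which follow the rRNAs on the heavy-strand precursor and encode membrane subunits of complex I, had the log2 fold changes nearest to 0 among the 13 mRNAs. MT-ND2 (chrM:4470-5511, forward strand) stood at 1538, 1545, 1626 and 1758 CPM in DMSO replicates 1 to 4 and 1419, 1505, 1662 and 1731 CPM in PZH. The groups overlap, and MT-ND2 did not pass the test (log2 fold change -0.03 ± 0.0632 (SE), adjusted p = 0.627); without scaling factors it was called lower (log2 fold change -0.29, adjusted p = 3.25e-05), and its sign turned on leaving out DMSO replicate 4 or PZH replicate 1. MT-ND1 (chrM:3307-4262, forward strand) stood at 1473, 1415, 1548 and 1628 CPM in DMSO and 1122, 1145, 1348 and 1319 CPM in PZH. Its groups do not overlap, although DMSO replicate 2 and PZH replicate 3 are close, and it fell 1.23-fold (log2 fold change -0.30 ± 0.0635 (SE), adjusted p = 1.95e-04).

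Distal heavy-strand genes were lower relative to these proximal ones. The summed counts of MT-ND4, MT-ND5 and MT-CYB were 2.93, 2.78, 2.75 and 2.79 times those of MT-ND1 and MT-ND2 in DMSO replicates 1 to 4. In PZH they were 1.70, 1.76, 1.83 and 1.76 times as many. The ratio was 1.599-fold lower in PZH (exact two-sided permutation p = 0.0286, adjusted p = 0.0314). The order along the precursor was not monotonic, however. Across the 12 heavy-strand mRNAs, which share their libraries, Spearman's rho between start position and log2 fold change was -0.46, and between gene length and log2 fold change -0.13. MT-CO2 and MT-ND3, in the middle, fell more than MT-ND4 and MT-ND4L, which lie further along.

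**Figure D3:**
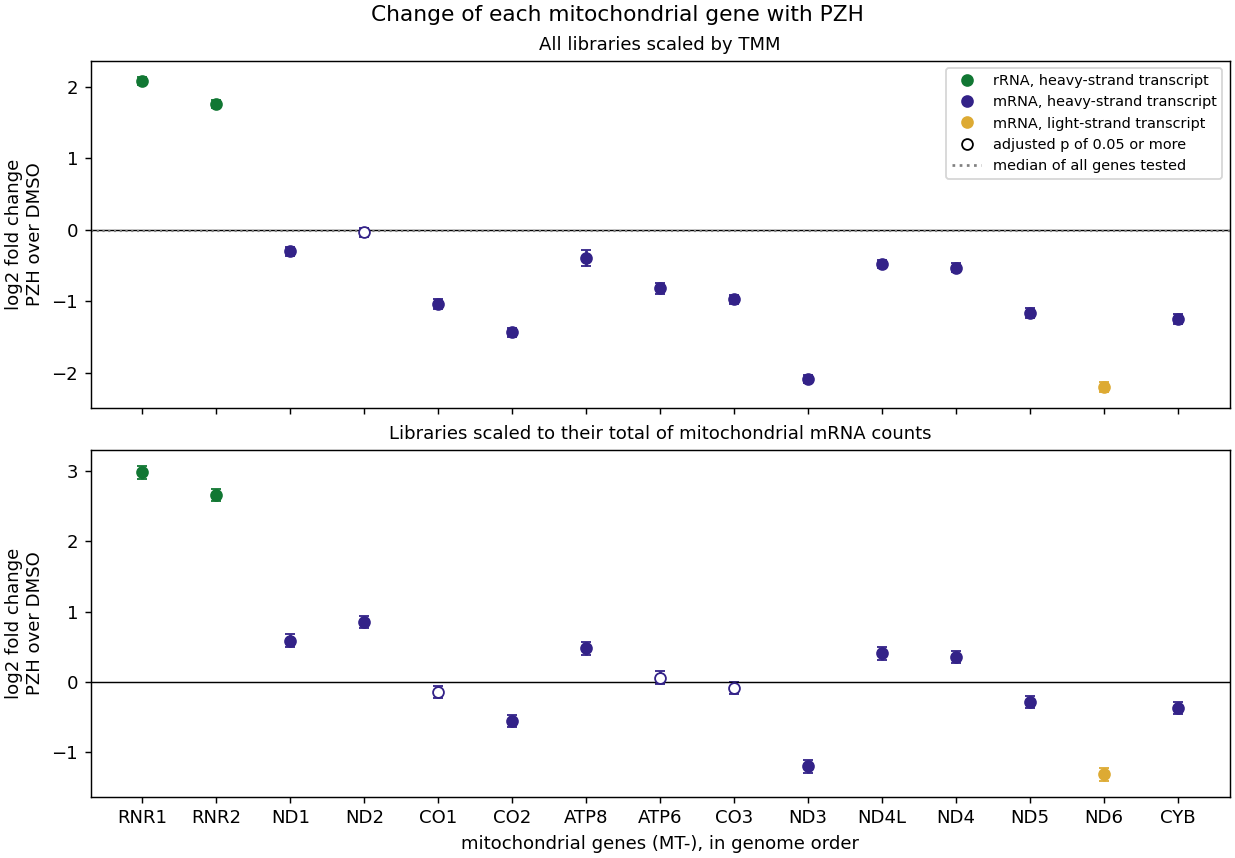
Log2 fold change ± SE of PZH over DMSO for the 15 genes in genome order, with libraries scaled by TMM (upper panel) and scaled to their mitochondrial mRNA counts (lower panel); open points had an adjusted p of 0.05 or more. ND6 (yellow) and ND3 are the lowest in both panels, and ND2 lies at -0.03 in the upper and 0.85 in the lower.

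The remaining complex I mRNAs lay between these extremes. MT-ND5 (chrM:12337-14148), the longest of the mRNAs and a proton-pumping subunit, stood at 1967, 1801, 1967 and 2166 CPM in DMSO replicates 1 to 4 and 755, 805, 975 and 989 CPM in PZH. It fell 2.24-fold (log2 fold change -1.17 ± 0.0763 (SE), adjusted p = 2.46e-12). MT-ND4 (chrM:10760-12137), another proton-pumping subunit, stood at 4387, 4180.1, 4398 and 4713 CPM in DMSO and 2675, 2902, 3406 and 3262 CPM in PZH. It fell 1.44-fold (log2 fold change -0.53 ± 0.0679 (SE), adjusted p = 2.37e-07). MT-ND4L (chrM:10470-10766) shares its mature RNA with MT-ND4, and went from 1023 ± 39.5 to 734 ± 65.4 CPM (log2 fold change -0.48 ± 0.0587 (SE), adjusted p = 1.18e-07). The reading frames of the pair overlap by 7 bases, so the counting of reads at that border is uncertain. Their log2 fold changes, -0.48 and -0.53, differed by less than their standard errors.

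MT-CYB (chrM:14747-15887), cytochrome b of complex III and the last mRNA of the heavy strand, stood at 2471, 2237, 2374 and 2584 CPM in DMSO replicates 1 to 4 and 879.8, 953, 1116 and 1116 CPM in PZH. It fell 2.38-fold (log2 fold change -1.25 ± 0.0704 (SE), adjusted p = 1.51e-13). Relative to the 6 heavy-strand mRNAs of complex I its counts were 1.58-fold lower in PZH, without overlap between groups (exact two-sided permutation p = 0.0286, adjusted p = 0.0314).

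Complex IV, cytochrome c oxidase, takes its catalytic core from MT-CO1, MT-CO2 and MT-CO3, and all 3 fell. MT-CO1 (chrM:5904-7445), the subunit that reduces oxygen, stood at 6429.8, 6017, 6478 and 6660.5 CPM in DMSO replicates 1 to 4 and 2796, 2847, 3488 and 3377 CPM in PZH. It fell 2.05-fold (log2 fold change -1.03 ± 0.0693 (SE), adjusted p = 3.90e-12). MT-CO2 (chrM:7586-8269), which accepts electrons from cytochrome c, stood at 3862, 3902, 3986 and 4078 CPM in DMSO and 1281, 1502, 1516 and 1546 CPM in PZH, where replicate 1 lies apart below the others. It fell 2.71-fold (log2 fold change -1.44 ± 0.0605 (SE), adjusted p = 7.35e-16). MT-CO3 (chrM:9207-9990), a structural core subunit, stood at 4551, 4255, 4403 and 4714 CPM in DMSO and 2116, 2214, 2348 and 2449 CPM in PZH, and fell 1.96-fold (log2 fold change -0.97 ± 0.0583 (SE), adjusted p = 4.68e-13). Summed, complex IV counts were 1.29, 1.29, 1.276 and 1.24 times those of the heavy-strand complex I mRNAs in DMSO replicates 1 to 4. In PZH they were 0.902, 0.898, 0.870 and 0.882 times as many, so that complex IV went from the larger to the smaller sum in every PZH library (exact two-sided permutation p = 0.0286, adjusted p = 0.0314).

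The ATP synthase mRNAs are read from 1 RNA in overlapping frames. The bases that MT-ATP8 and MT-ATP6 share are shown with the start codon of MT-ATP6 and the stop codon of MT-ATP8 in capitals.
Overlap: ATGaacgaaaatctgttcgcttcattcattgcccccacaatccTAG
These 46 bases are 22.2% of MT-ATP8 and 6.75% of MT-ATP6, so the counts of MT-ATP8 depend more on how shared reads were assigned. MT-ATP6 (chrM:8527-9207), part of the proton channel, stood at 3245, 2961, 3234 and 3446 CPM in DMSO replicates 1 to 4 and 1593, 1645, 2088 and 1972 CPM in PZH. It fell 1.77-fold (log2 fold change -0.82 ± 0.0746 (SE), adjusted p = 8.69e-10). MT-ATP8 (chrM:8366-8572), a small subunit beside it, stood at 559, 451, 491 and 645 CPM in DMSO and 336, 324, 517 and 451 CPM in PZH. Its groups overlap, since PZH replicate 3 lies above DMSO replicates 2 and 3. MT-ATP8 was called lower (log2 fold change -0.40 ± 0.114 (SE), adjusted p = 0.00297), but DESeq2 did not call it (adjusted p = 0.0781), nor did edgeR with robust empirical Bayes (adjusted p = 0.102). The log2 fold changes of MT-ATP8 and MT-ATP6, -0.40 and -0.82, differed by more than their standard errors, although both frames lie on 1 RNA. Whether the assignment of shared reads made that difference was not tested. The summed ATP synthase counts relative to heavy-strand complex I counts were 1.12-fold lower in PZH (exact two-sided permutation p = 0.0286, adjusted p = 0.0314). That call was lost on leaving out any 1 of the DMSO libraries (adjusted p = 0.0629), and with a mean of log2 counts in place of sums the difference turned to 0.149 (adjusted p = 0.157).

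**Figure D4:**
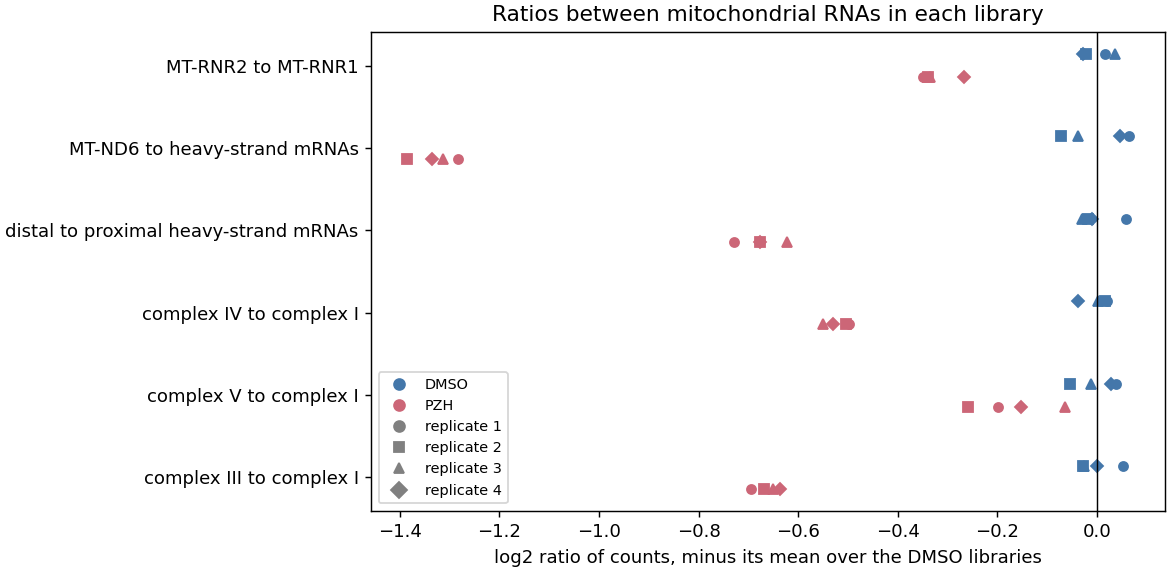
Log2 ratios of counts between mitochondrial RNAs within each library, minus the mean of the DMSO libraries, with 1 point per library and DMSO in blue and PZH in red. The ratio of MT-ND6 to the heavy-strand mRNAs is 1.33 lower in PZH, and the PZH points lie below the DMSO points in all 6 ratios, by least for complex V.

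Across mRNAs, 11 of 13 had groups that do not overlap and lower in PZH; the other two were MT-ND2 and MT-ATP8. Among all genes tested 38.4% had such groups. In all 13 mRNAs PZH replicates 3 and 4 stood above replicates 1 and 2, as they did in 17.8% of all genes tested. MT-RNR1 stood lower in replicates 3 and 4 than in 1 and 2, as did 17.6% of all genes, and MT-RNR2 showed neither order. The coefficient of variation of the mRNAs ran from 1.64% (MT-ND3) to 15.8% (MT-ATP8) over the DMSO libraries. Over the PZH libraries it ran from 6.42% (MT-ND3) to 22.9% (MT-ATP8).

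The make-up of the mRNA pool shifted while the pool shrank. Each library was scaled to its own summed mitochondrial mRNA counts (661551 to 736091 in DMSO, 282326 to 325382 in PZH) and the fit repeated. Relative to the pool, 5 mRNAs and both rRNAs were higher and 5 mRNAs lower. In this scaling, which takes a shrinking pool as its unit, 69.1% of all genes were called higher and 14.1% lower. The higher mRNAs were MT-ND1, MT-ND2, MT-ATP8, MT-ND4L and MT-ND4, and the lower mRNAs MT-CO2, MT-ND3, MT-ND5, MT-ND6 and MT-CYB. MT-CO1, MT-ATP6 and MT-CO3 were not called. MT-ATP6 is read from the same RNA as MT-ATP8. Whether the higher call of MT-ATP8 depends on how shared reads were assigned was not tested. MT-ND2 went from 4.87 ± 0.159% to 8.79 ± 0.224% of mitochondrial mRNA counts (log2 difference 0.85 ± 0.0883 (SE), adjusted p = 1.73e-20). Its share was 4.64, 4.93, 4.90 and 4.996% in DMSO replicates 1 to 4 and 8.88, 8.90, 8.45 and 8.92% in PZH, so the groups lie apart here although they overlap in CPM. MT-ND3 went from 3.32 ± 0.111% to 1.45 ± 0.0715% (-1.20 ± 0.0906, adjusted p = 1.46e-35), and MT-ND6 from 1.65 ± 0.0730% to 0.662 ± 0.0193%. By library, the share of MT-ND3 was 3.30, 3.47, 3.29 and 3.20% in DMSO and 1.49, 1.51, 1.35 and 1.43% in PZH. The p-values of this fit rest on a spread pooled over all genes. As shares per library the groups did not overlap for 12 of the 13 mRNAs, MT-ATP6 being the exception. The matching count over all genes was not made in this scaling, so the 12 cannot be set against it. MT-CO1 had the highest mean share of the pool in both groups, at 19.3 ± 0.260% and 17.4 ± 0.381%. MT-ND4, at 13.3 ± 0.0801% to 17.01 ± 0.282%, came close to it in PZH, where its 4 libraries span 16.7% to 17.3% and those of MT-CO1 16.8% to 17.7%. These shares sum to 100% in each library, so a rise of some requires a fall of others.

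**Figure D5:**
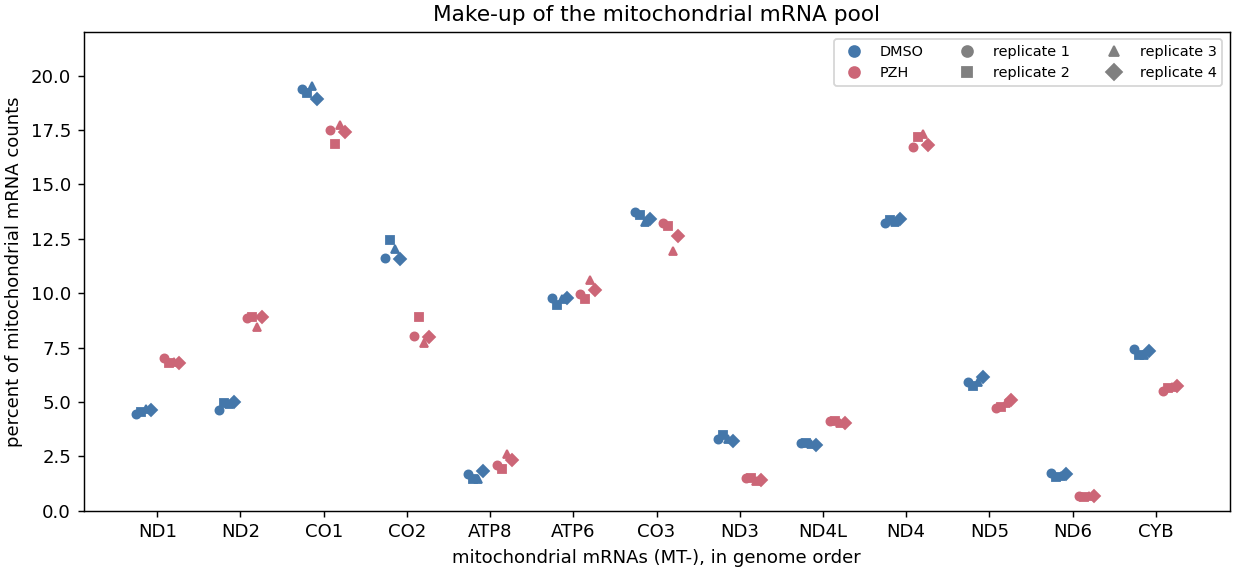
Percent of mitochondrial mRNA counts taken by each mRNA in each library, in genome order, DMSO in blue and PZH in red. ND1, ND2, ND4L and ND4 stand higher in PZH, and CO2, ND3, ND5, ND6 and CYB lower, with no overlap in these genes.

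Levels were also compared between genes per kilobase of gene length, as CPM per kilobase. In DMSO the mRNA levels ran from 1043 for MT-ND6 to 5785 for MT-CO2, a range of 5.55-fold. The next below MT-CO2 was MT-CO3 at 5716 ± 251, which did not differ from it beyond the spread. In PZH they ran from 227 for MT-ND6 to 2911 for MT-CO3, a range of 12.8-fold, and MT-CO2 stood at 2136. MT-RNR2 was at 0.911 times the highest mRNA in DMSO and 6.14 times in PZH. MT-RNR1 was at 0.195 times the highest mRNA in DMSO and 1.65 times in PZH. The shortest gene is MT-ATP8 at 207 bases, and a level per kilobase is least certain for short genes. Poly(A) selection may also capture these RNAs unequally, since MT-ND6 mRNA lacks a tail and the rRNAs carry short ones. These levels thus need not rank the RNAs by their amount in the cell.

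Parts of the nuclear genome are copies of mitochondrial genes, and their rows can share reads with the members. By symbol, the table held 92 such rows. Of these, 6 passed the filter on low counts, and only these 6 were aligned to their mitochondrial genes. The 92 rows held 0.0538 ± 0.00316% of counts in DMSO and 0.0348 ± 0.00298% in PZH. MTATP6P1 on chromosome 1, 98.5% identical to MT-ATP6 over 681 bases, fell 1.39-fold from 359 ± 20.8 to 258 ± 29.7 CPM (adjusted p = 5.96e-07). Its counts were 11.1 ± 0.416% of those of MT-ATP6 in DMSO and 14.2 ± 0.319% in PZH. MTND2P28, 98.4% identical to MT-ND2, went from 122 ± 11.1 to 109.9 ± 5.60 CPM (adjusted p = 0.0200). It was no longer called by DESeq2, under RLE factors, or without any 1 of DMSO replicates 1 and 4 and PZH replicates 1 and 2. MTCO1P12, 98.6% identical to MT-CO1, fell by 1.59 on the log2 scale, from 6.86 ± 2.82 to 2.28 ± 0.440 CPM (adjusted p = 2.29e-06). Copies of MT-RNR2 went the other way. MTRNR2L12, 95.1% identical to MT-RNR2 over 67.2% of its length, rose 4.88-fold from 1.15 ± 0.332 to 5.63 ± 0.758 CPM (edgeR adjusted p = 1.04e-09). MTRNR2L8, 93.1% identical over 83.5%, rose 2.58-fold from 0.630 ± 0.182 to 1.64 ± 0.385 CPM (edgeR adjusted p = 3.11e-04). Both had few counts, at 20 to 34 and 8 to 17 per DMSO library, so these folds are uncertain. MTND4P12, 95.8% identical to MT-ND4, was not called, at 1.054 ± 0.147 and 1.06 ± 0.233 CPM. With the counts of the 5 called copies added to their mitochondrial genes, MT-ATP6, MT-ND2, MT-CO1 and MT-RNR2 kept their directions and their side of the threshold.

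Nuclear genes for transcription and replication of mitochondrial DNA and for processing, modifying and degrading its RNA were mostly lower. Those of replication, such as POLG, TWNK and MGME1, were counted with transcription. Of 46 tested, 30 were called lower and 3 higher, with a median log2 fold change of -0.36; over all genes tested 40.9% were lower and 39.3% higher. Without scaling factors the list counted 41 lower and 2 higher, and of all 15006 genes 7670 were then lower and 4473 higher. The 3 lower genes with the smallest p were ELAC2, TRMT10C and LRPPRC. ELAC2, which cuts the 3′ ends of mitochondrial tRNAs out of the precursor, fell 2.12-fold from 141 ± 2.32 to 66.8 ± 0.957 CPM. TRMT10C, a subunit of the RNase P that cuts the 5′ ends, fell 2.71-fold from 67.7 ± 3.27 to 24.9 ± 1.597 CPM. LRPPRC, which binds mitochondrial mRNAs and is known to be needed for their stability, fell 2.03-fold from 395 ± 6.97 to 195 ± 9.46 CPM. TFAM, which packages mitochondrial DNA and starts its transcription, fell 1.78-fold, and the mitochondrial RNA polymerase POLRMT fell 1.24-fold. The 3 higher genes were NSUN4, which modifies the small-subunit rRNA, SUPV3L1, the helicase of the RNA-degrading complex, and FASTKD2, which binds the large-subunit rRNA. They rose 1.97-fold, 1.33-fold and 1.16-fold, and without scaling factors the log2 fold change of FASTKD2 turned to -0.05 (adjusted p = 0.468). MTPAP, the mitochondrial poly(A) polymerase, chosen for mention after its value was seen, was not called, at 48.4 ± 3.31 and 49.5 ± 2.26 CPM; without scaling factors it was called lower (log2 fold change -0.23, adjusted p = 0.00174). Whether these levels bear on those of the mitochondrial RNAs was not tested.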

How the data were processed

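Per the labels' protocols, poly(A) RNA was enriched from Trizol-extracted total RNA, and NEBNext Ultra RNA libraries were made from it. The submitters' processing notes list StringTie 1.3.3b, DESeq 1.28.0, HISAT2 2.1.0 and FastQC 0.11.5 without a role. Build, annotation and strand use: not given in the sources used here. Raw counts per gene symbol were deposited by the authors in 1 table with 8 library columns.

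Genes passing edgeR's filterByExpr (minimum count 10, minimum total 15) were scaled with TMM and tested by edgeR's two-sided quasi-likelihood test with Benjamini-Hochberg adjustment over 15006 genes (threshold 0.05). A standard error is the log2 fold change's size divided by the square root of F. Shares and ratios (11 measures; tRNA measures had no rows) were tested by two-sided exact permutation, with 70 possible assignments of the libraries. All members were named, with the 3 nuclear genes of smallest p per direction, TFAM, POLRMT, LRPPRC and nuclear copies at 1 CPM or more. Members and lists were chosen with earlier results of these data known. Gene lengths and sequences came from GENCODE release 29; copies were compared by local alignment. The scripts were tested on simulated data. Alternatives were other scalings, filters, DESeq2, limma-voom, robust empirical Bayes, a replicate block, an adjusted p of 0.01, other denominators and summaries, leaving out each library, and, chosen after seeing the data, merging nuclear copies. Versions were Python 3.11.15, DESeq2 1.42.0, limma 3.58.1, edgeR 4.0.16 and R 4.3.3.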

Additional observations from a re-analysis of the deposited data

Results flagged for a closer look

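MT-CO2 in PZH replicate 1 stood at 1281 CPM, apart from the other PZH libraries at 1502 to 1546 CPM, by Dixon's test for a group of 4. It was the only such value among 52 sets of 4 libraries checked, where chance marks about 1 in 20. Shares of the mitochondrial mRNA pool were not among these sets. In those shares other values lie apart, such as MT-ND2 in PZH replicate 3, at 8.45% against 8.88 to 8.92% in the other PZH libraries. Without PZH replicate 1 the fall of MT-CO2 went from a log2 fold change of -1.44 to -1.36 and passed the threshold as before.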

How the results depend on the processing

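The counts of mitochondrial genes called stayed within 1.5 times under the alternatives run, at 2 higher and 11 to 13 lower. Relative to the mRNA total they were 7 higher and 5 to 6 lower. Nuclear genes of the list were 2 to 4 higher and 29 to 41 lower. The 41 came without scaling factors, where 7670 of all 15006 genes were called lower and 4473 higher. On leaving out each library, the difference of PZH from DMSO ran from -2.06 to -1.92 percentage points for the mRNA share and from 1.91 to 1.97 for the rRNA share. For the whole mitochondrial share, which was not called, it ran from -0.127 to 0.0372; it turned to 0.185 with the 10 most abundant nuclear genes out of the denominator and to 0.792 with TMM-effective library sizes. The log2 ratio of complex V to complex I ran from -0.203 to -0.138 without each library, turned to 0.149 with a mean of log2 counts and was -0.147 (adjusted p = 0.0629) with nuclear copies merged. The sign of MT-ND2, not called, turned without DMSO replicate 4 (0.00285) and without PZH replicate 1 (0.0353), with a range of -0.0741 to 0.0353 over the libraries left out. That of MTND4P12, not called, turned with upper quartile factors (-0.0607), without scaling factors (-0.245), without a filter (-0.00143), and without DMSO replicate 1 (-0.0375), DMSO replicate 2 (-0.0601) or PZH replicate 2 (-0.121), with a range of -0.121 to 0.114. The cause of these turns was not tested.

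Replicate numbers did not pair the libraries: same-numbered libraries' deviations from their group means correlated at 7e-04 to 0.0113, and 1 of 4 numbers correlated best with its own. With the replicate block, 12 mitochondrial genes were lower and 2 higher, and 6 rather than 5 were lower relative to the mRNA total, MT-CO1 being added (adjusted p = 0.0303). A paired sign-flip test by replicate block cannot go below 0.125, so its adjusted p was 0.138 for the mRNA share (-1.99), the rRNA share (1.95), the share of nuclear copies (-0.0190), and the log2 ratios of rRNA to mRNA (2.69), MT-RNR2 to MT-RNR1 (-0.32), MT-ND6 to heavy-strand mRNAs (-1.33), distal to proximal mRNAs (-0.68), and complexes IV (-0.52), V (-0.17) and III (-0.66) to complex I. Depth limited no member. Planned tRNA measures had no rows and were not run.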
